A study of Mus musculus with 6 samples.

Results

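Ccl3, Ccl4, Ccl5 and Xcl1 are 4 chemokine genes that activated and memory T cells transcribe, and their messenger RNA was followed through 6 libraries of sorted mouse CD4 T cells. They are 4 of the 49315 gene identifiers in the count tables, matched by symbol, and all 4 are among the 12838 genes that reached at least 2 CPM (reads of a gene relative to the scaled size of the library) and 10 counts in at least 1 library. The 4 genes were chosen by their log2 ratios between these same libraries, which were large, so every ratio of theirs is a description and carries no test. Ccl3, Ccl4 and Ccl5 belong to the CC chemokines. Xcl1 was grouped with them but belongs to the C family, whose proteins lack a pair of the conserved cysteines.

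Chemokines are small secreted proteins that direct cell migration through G-protein-coupled receptors. CCL3, CCL4 and CCL5 attract T cells, NK cells and myeloid cells. Antigen-receptor signals switch on Ccl3, Ccl4 and Xcl1 quickly, whereas Ccl5 is known as a late gene of effector and memory T cells, which hold its messenger RNA at rest. XCL1, also called lymphotactin, acts on XCR1, a receptor of cross-presenting dendritic cells.

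The cells carried a transgenic T-cell receptor, CBir1, that recognises a flagellin of gut commensal bacteria. In the 5 transferred groups, C57BL/6 recipients (CD45.2) were injected on day 0 with CD45.1 CD4+CD44- donor cells. Immunisation followed on days 1 and 7, each time with 50 ug of the flagellin and 1 ug CT. According to the protocol the peptide MEP1 was given to all recipients again on day 56 as a challenge (3 ug), and spleen donor cells were collected by sorting on day 63. The treatments between these dates ask what meeting the peptide while metabolism is inhibited leaves behind. MEP1+Metformin+Rapamycin mice, called the combination here, received 3 ug MEP1 on days 28 and 35, each time followed by 5 days of metformin, an inhibitor of mitochondrial complex I, together with rapamycin, an inhibitor of mTOR complex 1. MEP1+Rapamycin and MEP1+Metformin mice received the peptide with a single inhibitor on the same schedule. MEP1+CMC mice received the peptide with the vehicle CMC alone, which the inhibitors were also given in. No treatment mice received neither peptide nor inhibitor on those days. The naive CD4 control is not described further.

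Each condition had 1 library, so no difference has a replicate check. Intervals are exact 95% Clopper-Pearson intervals of the counts, except that the departure from additivity has an approximate 95% interval from a normal distribution. All of them cover counting error only. The libraries held 26139000 (naive) to 60622310 (No treatment) counts, and MEP1+Rapamycin was the smallest transferred library, with 32321936. A set of 5 loci resembling ribosomal RNA took 15.4% of naive counts and 3.13% of MEP1+Rapamycin counts. Their share was 1.00% to 1.28% in the other transferred libraries. In the No treatment file the heading of the counts reads as unchallenged, against the label. If the heading is right, every difference from No treatment also holds the day 56 challenge. The summed level of 10 CD4 T-cell identity genes was 6228 (MEP1+Rapamycin) to 8892 (No treatment) TMM CPM in the 6 libraries (CPM after TMM scaling). None of these genes was at 0. Sex-linked genes separated the libraries. Xist was at 0.218 to 0.486 TMM CPM in the 3 inhibitor libraries, against 262 in MEP1+CMC, and 43.1 in the naive control. Ddx3y, a Y-linked gene, was at 62.0 to 95.8 in the inhibitor libraries, against 0.307 in MEP1+CMC, and 0.377 in the naive control. In every comparison of an inhibitor library with MEP1+CMC, the inhibitor and the sex of the mice cannot be told apart. No treatment held both kinds of transcript, with 24.2 TMM CPM of Xist and 35.9 of Ddx3y.

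The coding sequences show how the members differ. Each line starts at codon 24, after the part that encodes most of the signal peptide, and ends at the last codon before the stop. Capitals mark cysteine codons. The sequences are from GENCODE M21 transcripts (GRCm38).
Ccl3: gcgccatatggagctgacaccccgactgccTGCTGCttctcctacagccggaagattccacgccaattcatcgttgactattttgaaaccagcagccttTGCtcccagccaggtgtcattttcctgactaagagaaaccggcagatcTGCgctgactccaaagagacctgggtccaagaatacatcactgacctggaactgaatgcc
Ccl4: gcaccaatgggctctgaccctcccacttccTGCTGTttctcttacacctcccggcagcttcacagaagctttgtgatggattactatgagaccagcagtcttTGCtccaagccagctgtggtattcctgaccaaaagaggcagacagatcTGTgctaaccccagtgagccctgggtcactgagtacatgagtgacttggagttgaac
Ccl5: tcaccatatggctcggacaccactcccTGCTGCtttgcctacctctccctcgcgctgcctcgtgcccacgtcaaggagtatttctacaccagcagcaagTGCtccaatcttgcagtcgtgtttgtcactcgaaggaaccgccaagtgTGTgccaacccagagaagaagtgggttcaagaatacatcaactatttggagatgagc
Xcl1: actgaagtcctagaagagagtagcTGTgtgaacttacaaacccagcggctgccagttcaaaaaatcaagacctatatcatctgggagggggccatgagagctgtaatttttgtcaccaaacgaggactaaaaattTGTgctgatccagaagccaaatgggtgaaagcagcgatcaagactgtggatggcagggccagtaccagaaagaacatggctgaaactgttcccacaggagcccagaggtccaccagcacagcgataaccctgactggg
Ccl3, Ccl4 and Ccl5 each have 4 cysteine codons in this stretch, the first pair of them adjacent, which is the arrangement that gives the CC family its name. Xcl1 has 2, at codons 32 and 69, and no adjacent pair. The coding regions have 92 codons in Ccl3, 92 in Ccl4, 91 in Ccl5 and 114 in Xcl1. Ccl3 and Ccl4 were the most alike, identical at 67.0% of aligned bases, against 59.6% for Ccl3 with Ccl5 and 40.3% to 48.6% for Xcl1 with the others. The longest stretch shared by any pair of transcripts was 13 bases.

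The 3 CC genes lie in a chemokine cluster on chromosome 11 (GRCm38, outer exon bounds). Ccl5 (ENSMUSG00000035042) spans 83525778 to 83530518 on the minus strand, Ccl3 (ENSMUSG00000000982) spans 83647844 to 83649355 on the minus strand, and Ccl4 (ENSMUSG00000018930) spans 83662584 to 83664683 on the plus strand. Ccl3 and Ccl4 are 13229 bases apart and point away from each other. Xcl1 (ENSMUSG00000026573) lies on chromosome 1, 164931644 to 164935527, on the minus strand. Its exons overlap those of Gm20743 on the opposite strand, which had at most 0.938 TMM CPM in any library. The strand setting of the counting is not given in the sources used here, so reads of that pair cannot be separated.

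Of the promoters, Ccl3 and Xcl1 matched in the RefSeq table for GRCm38.p6. The 250 bases before each start are printed from the minus strand, chr11:83649379-83649628 for Ccl3 and chr1:164935523-164935772 for Xcl1. They are shown because factors of effector T cells act through such regions, and capitals mark matches on either strand to the cores of T-box (GGTGTG), RUNX (TGTGGT) and NFAT (GGAAA) factors.
Ccl3: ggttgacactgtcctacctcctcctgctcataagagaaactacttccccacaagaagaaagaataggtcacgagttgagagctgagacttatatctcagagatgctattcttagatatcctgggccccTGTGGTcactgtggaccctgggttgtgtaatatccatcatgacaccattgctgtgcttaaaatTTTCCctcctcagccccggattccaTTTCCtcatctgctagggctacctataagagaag
Xcl1: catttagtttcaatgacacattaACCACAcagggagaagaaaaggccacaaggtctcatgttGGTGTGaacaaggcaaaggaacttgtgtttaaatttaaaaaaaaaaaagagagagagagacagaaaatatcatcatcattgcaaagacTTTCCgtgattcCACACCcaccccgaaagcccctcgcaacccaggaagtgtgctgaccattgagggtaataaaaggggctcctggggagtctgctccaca
The Ccl3 window holds 1 RUNX core and 2 NFAT cores. The Xcl1 window holds 2 T-box cores, 1 RUNX core and 1 NFAT core, and no matches overlap one another in either window. Among 32851 promoters of the same length, 16.3% hold a T-box core, 14.0% a RUNX core and 55.6% an NFAT core. Neither window holds TGANTCA (AP-1, in 6.7% of promoters) or the core-promoter letters TATAAA, which 12.4% hold. A match is a description of these letters and not a measured site.

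Ccl3, whose protein attracts monocytes and T cells and signals through CCR1, was highest in MEP1+CMC. Its level was 33.8 TMM CPM in the combination, 17.8 in MEP1+Rapamycin, 63.02 in MEP1+Metformin, 292.5 in MEP1+CMC, 61.5 in No treatment and 0.431 in the naive control. MEP1+Metformin and No treatment lay next to each other with a log2 ratio of 0.03 (interval -0.04 to 0.10), while every other pair of neighbours in the order of levels had an interval that excluded no change. The naive value rests on 8 reads, against 659 to 17149 in the transferred libraries.

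Ccl4, which encodes a close relative of CCL3, had the same high and low libraries as Ccl3. Its level was 77.4 TMM CPM in the combination, 42.1 in MEP1+Rapamycin, 153.7 in MEP1+Metformin, 709.9 in MEP1+CMC, 164.6 in No treatment and 0.915 in the naive control. MEP1+CMC again stood above all others, and MEP1+Rapamycin was the lowest of the 5 transferred libraries. MEP1+Metformin and No treatment were again the closest neighbours, with a log2 ratio of -0.10 (interval -0.14 to -0.06). The direction of that small difference turned under other scalings, up to 0.52.

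Ccl5, whose protein binds CCR1 and CCR3, was abundant in all transferred cells. Its level was 924 TMM CPM in the combination, 444 in MEP1+Rapamycin, 854 in MEP1+Metformin, 2796 in MEP1+CMC, 704 in No treatment and 9.91 in the naive control. MEP1+CMC was again highest, where Ccl5 ranked 18 of 12838 genes by TMM CPM, and MEP1+Rapamycin was again the lowest of the transferred libraries. The combination and MEP1+Metformin both lay above No treatment, an order that Ccl3 and Ccl4 did not have for the combination. The combination was 0.11 above MEP1+Metformin on the log2 scale (interval 0.10 to 0.13), and that difference was -0.02 under another scaling.

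Xcl1, the ligand of XCR1, had the lowest counts of the 4. Its level was 8.41 TMM CPM in the combination, 7.96 in MEP1+Rapamycin, 6.98 in MEP1+Metformin, 28.2 in MEP1+CMC, 11.8 in No treatment and 0.269 in the naive control, the last from 5 reads. MEP1+CMC was highest and the 3 inhibitor libraries lay together below No treatment. Under other scalings or length correction their log2 ratios to No treatment reached -0.03 in the combination, -0.06 in MEP1+Rapamycin and -0.10 in MEP1+Metformin. The interval of the log2 ratio held 0 for the combination against MEP1+Rapamycin (0.08, -0.13 to 0.30) and for MEP1+Rapamycin against MEP1+Metformin (0.19, -0.04 to 0.42).

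**Figure D1:**
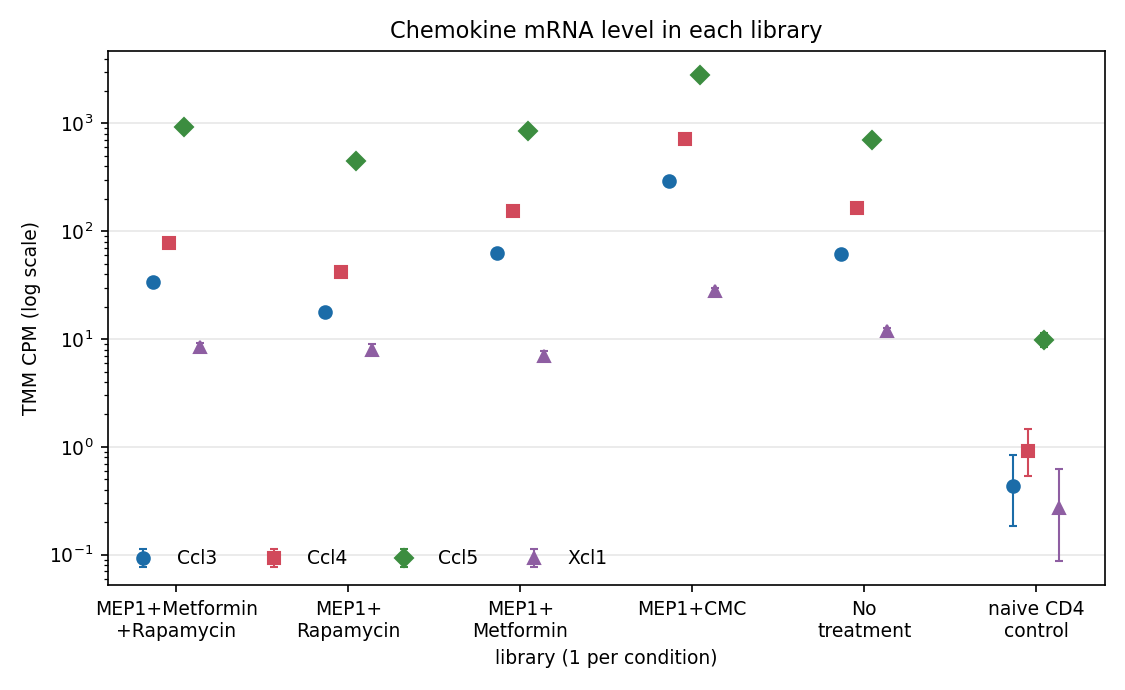
Levels of Ccl3, Ccl4, Ccl5 and Xcl1 in each of the 6 libraries, as TMM CPM on a log axis, with 95% counting intervals and 1 library per condition. MEP1+CMC is the highest library for all 4 genes, at 292.5, 709.9, 2796 and 28.2 TMM CPM, and the naive control is the lowest.

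Levels of different genes can be compared once divided by exon length, as TMM RPKM (TMM CPM per kilobase of exon). In MEP1+CMC, Ccl5 had 2913, Ccl4 1076, Ccl3 382 and Xcl1 53.8 TMM RPKM, which placed Ccl5 at rank 10 and Ccl4 at rank 34 of the 12838 genes on that scale. In MEP1+Rapamycin, Ccl5 had 463, Ccl4 63.8, Ccl3 23.2 and Xcl1 15.2 TMM RPKM, and Ccl4 stood at rank 819. Ccl5 was above Ccl4, Ccl4 above Ccl3 and Ccl3 above Xcl1 in each library, but in the naive control Ccl3 (0.562) and Xcl1 (0.515) rest on 8 and 5 reads and cannot be ordered. The exon length of Ccl5 is 960 bases with all annotated transcripts and 532 in the coding one, so its level per length is lower than the coding transcript alone would give.

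No treatment was first set against the naive control, a comparison of transferred and immunised cells, challenged according to the protocol, with cells labelled naive. All 4 genes were higher in No treatment, where 16.4% of the kept genes passed the same rule of size (at least 2-fold, with a counting interval that excludes no change) as higher. Ccl4 stood 180-fold higher (log2 ratio 7.49, interval 6.81 to 8.27), Ccl3 143-fold (7.16, 6.18 to 8.37), Ccl5 71.1-fold (6.15, 5.94 to 6.37) and Xcl1 43.9-fold (5.46, 4.23 to 7.08). The median of the 4 was 6.65, against 0.08 over the kept genes. Ccl3, Ccl4 and Xcl1 were under 2 CPM in the naive library, so they passed the filter only through the transferred ones and had to be higher there. This pair also differed in Ddx3y, at 35.9 TMM CPM in No treatment against 0.377 in the naive control, and the part of sex in the result was not tested. In bulk libraries such as these, fewer cells that express a gene and less RNA of it per cell cannot be told apart.

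MEP1+CMC was set against No treatment to ask what the peptide with its vehicle did in the absence of inhibitors. No CMC is described for No treatment, so the peptide and the vehicle cannot be told apart in this pair. All 4 genes were higher in MEP1+CMC, with 7.76% of the kept genes higher by the rule. The log2 ratio was 2.25 for Ccl3 (interval 2.20 to 2.30), 2.11 for Ccl4 (2.08 to 2.14), 1.99 for Ccl5 (1.97 to 2.01) and 1.25 for Xcl1 (1.12 to 1.38). Ccl3 thus had 4.75-fold and Xcl1 2.38-fold the level of No treatment. The median of the 4 was 2.05, against -0.04 over the kept genes. The same library pair differed in Xist and Ddx3y, and the part of sex in the result was not tested.

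Each inhibitor library was set against MEP1+CMC, which holds the peptide and vehicle alone. These 3 comparisons share the MEP1+CMC library, so a single high value there enters all of them. All 4 genes were lower in the combination, where 3.68% of the kept genes were lower by the rule, in MEP1+Rapamycin (5.83%) and in MEP1+Metformin (2.98%). The medians of the 4 were -2.43 in the combination, -3.35 in MEP1+Rapamycin and -2.11 in MEP1+Metformin, and those over the kept genes were -0.01, -0.13 and -0.04.

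With rapamycin alone, Ccl4 had 16.9-fold less than MEP1+CMC (log2 ratio -4.08, interval -4.15 to -4.00) and Ccl3 16.5-fold less (-4.04, -4.16 to -3.93). Ccl5 was lower by a smaller amount (-2.65, -2.68 to -2.63), and Xcl1 by the smallest (-1.82, -2.01 to -1.64). Ordered from the lowest ratio, Ccl4 ranked 55, Ccl3 60, Ccl5 140 and Xcl1 262 among the 12838 kept genes.

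With metformin alone the 4 genes were closer to each other. The log2 ratio was -2.21 for Ccl3 (interval -2.27 to -2.16), -2.21 for Ccl4 (-2.24 to -2.17), -2.01 for Xcl1 (-2.18 to -1.85) and -1.71 for Ccl5 (-1.73 to -1.70). Ccl3 and Ccl4 were each 4.6-fold lower, and Ccl5 3.27-fold.

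In the combination, Ccl4 (-3.20, interval -3.24 to -3.15) and Ccl3 (-3.11, -3.18 to -3.04) lay between the libraries with a single inhibitor. Ccl5 (-1.60, -1.61 to -1.58) lay above both of those, and Xcl1 (-1.74, -1.89 to -1.60) lay beside the rapamycin library within counting error. Ccl3 and Ccl4 held ranks 42 and 41 from the lowest ratio there, while Ccl5 ranked 203.

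**Figure D2:**
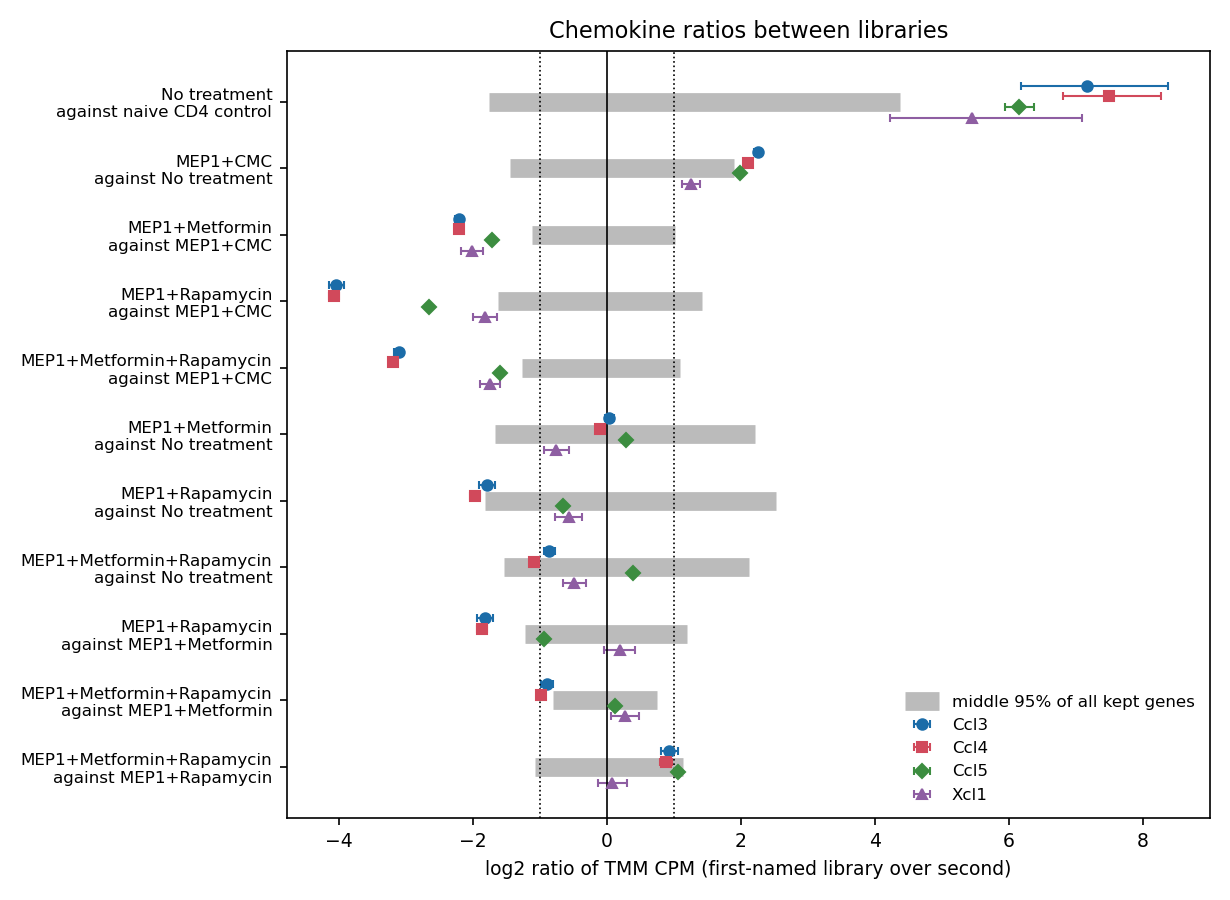
Log2 ratios of TMM CPM for Ccl3, Ccl4, Ccl5 and Xcl1 in the comparisons, with 95% counting intervals. Grey bars span the middle 95% of the 12838 kept genes and dotted lines mark a 2-fold difference. Against MEP1+CMC all 4 genes lie left of both dotted lines, down to -4.08 for Ccl4 with rapamycin.

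Set against No treatment, the inhibitor libraries ask how far the genes were from the level without peptide and inhibitor. In MEP1+Metformin none of the 4 passed the rule of size, where 14.1% of the kept genes passed in either direction. Their log2 ratios were 0.03 for Ccl3, -0.10 for Ccl4, 0.28 for Ccl5 and -0.76 for Xcl1. Under other scalings they reached 0.62 for Ccl3 and -0.10 for Xcl1. In MEP1+Rapamycin, Ccl3 (-1.79, interval -1.91 to -1.67) and Ccl4 (-1.97, -2.05 to -1.89) were lower, 2 of 4 genes where 7.28% of the kept genes were lower. Ccl5 had -0.66 and Xcl1 -0.57 there, short of 2-fold. In the combination only Ccl4 passed as lower (-1.09, -1.14 to -1.04), where 4.92% of the kept genes did, and it did not pass with library totals. Ccl3 had -0.86, Xcl1 -0.49 and Ccl5 0.39 in that comparison.

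The inhibitor libraries can be set against each other without MEP1+CMC, and all 3 had Y-linked transcripts and almost no Xist. In MEP1+Rapamycin against MEP1+Metformin, Ccl4 (-1.87, interval -1.95 to -1.79) and Ccl3 (-1.83, -1.95 to -1.70) were lower, 2 of 4 where 4.03% of the kept genes were lower. Ccl5 had -0.94 (-0.97 to -0.92) and Xcl1 0.19 (-0.04 to 0.42). In the combination against MEP1+Rapamycin, Ccl5 passed as higher (1.06, 1.03 to 1.08), 1 of 4 where 3.33% of the kept genes were higher. Ccl3 (0.93) and Ccl4 (0.88) fell just short of 2-fold, and Xcl1 had 0.08. With DESeq2 size factors Ccl5 was short of 2-fold too. In the combination against MEP1+Metformin none of the 4 passed, where 2.98% of the kept genes passed in either direction. Ccl4 had -0.99 (-1.04 to -0.94), which was past 2-fold under other scalings, Ccl3 -0.90, Ccl5 0.11 and Xcl1 0.27.

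The 4 peptide libraries form a square of metformin by rapamycin. The log2 differences of each inhibitor alone from MEP1+CMC added up to -6.26 for Ccl3, whereas the combination lay at -3.11. The departure from additivity was 3.14 for Ccl3 (interval 3.00 to 3.28), 3.09 for Ccl4 (3.00 to 3.18), 2.77 for Ccl5 (2.74 to 2.80) and 2.09 for Xcl1 (1.82 to 2.36). Over 12790 genes with counts in all 4 libraries its median was 0.17 and the middle 95% ran from -1.54 to 1.60, with 102 genes above Ccl3. The departure counts the MEP1+CMC library in full, so a high value there raises it. Of the 4 peptide libraries, MEP1+CMC alone had high Xist and almost no Ddx3y. Inhibitor and sex therefore cannot be told apart in the departure. The metformin difference of Ccl3 was 0.93 on the log2 scale with rapamycin and -2.21 without it.

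**Figure D3:**
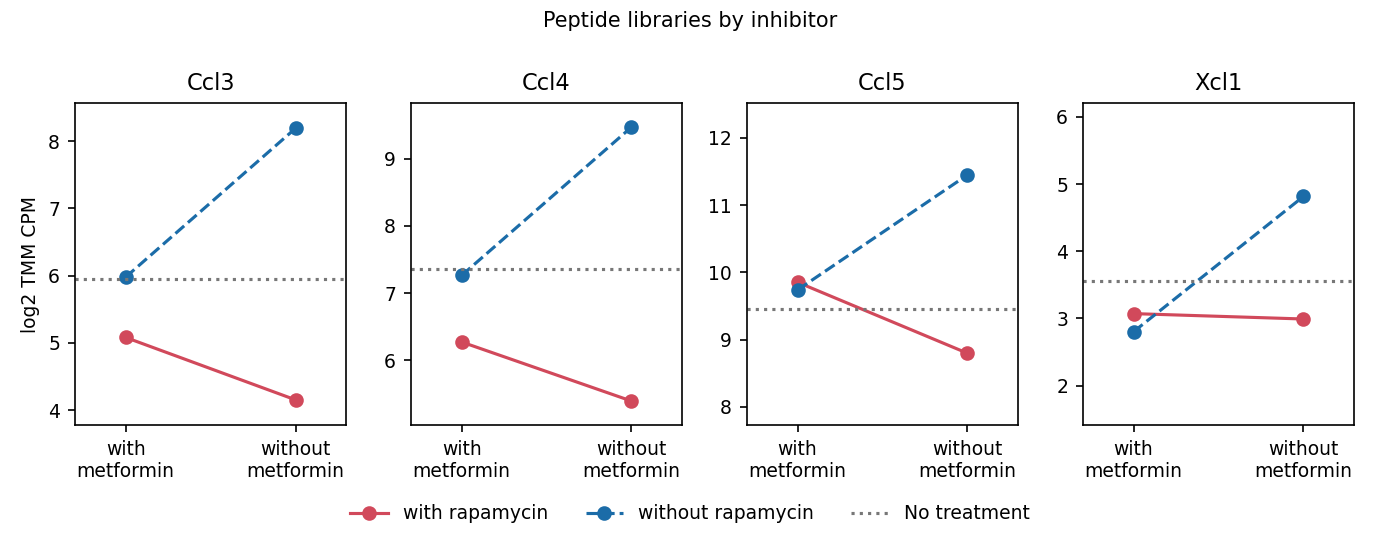
Log2 TMM CPM of each gene in the 4 peptide libraries, with metformin at the left of each panel and without it at the right, and lines for libraries with and without rapamycin. The vertical axes differ in level but span the same number of log2 units, and the dotted line is No treatment. Without rapamycin the line climbs to MEP1+CMC at the right, and with rapamycin it slopes the other way for Ccl3, Ccl4 and Ccl5 and is nearly flat for Xcl1.

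Ratios of counts within a library depend on no scaling. Ccl4 reads per Ccl3 read were 2.29 in the combination (interval 2.17 to 2.42), 2.37 in MEP1+Rapamycin (2.16 to 2.60), 2.44 in MEP1+Metformin (2.34 to 2.54), 2.43 in MEP1+CMC (2.38 to 2.47), 2.67 in No treatment (2.57 to 2.78) and 2.13 in the naive control (0.869 to 5.69). No treatment was the highest, with an interval above that of MEP1+CMC. The ratio stayed within a narrow band while Ccl3 itself differed 16.5-fold between MEP1+Rapamycin and MEP1+CMC. Ccl5 reads per Ccl4 read were 11.9 in the combination (11.6 to 12.3), 10.6 in MEP1+Rapamycin (10.02 to 11.1), 5.56 in MEP1+Metformin (5.42 to 5.69), 3.94 in MEP1+CMC (3.90 to 3.98), 4.28 in No treatment (4.18 to 4.37) and 10.8 in the naive control (6.58 to 19.0). Both libraries with rapamycin were high and the other transferred libraries were low, with intervals that do not touch. The naive control was as high as the rapamycin libraries, from 17 Ccl4 reads. Of the summed counts of the 4 genes, Ccl5 made up 88.5% in the combination, 86.8% in MEP1+Rapamycin, 79.2% in MEP1+Metformin, 73.1% in MEP1+CMC, 74.7% in No treatment and 86.0% in the naive control.

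**Figure D4:**
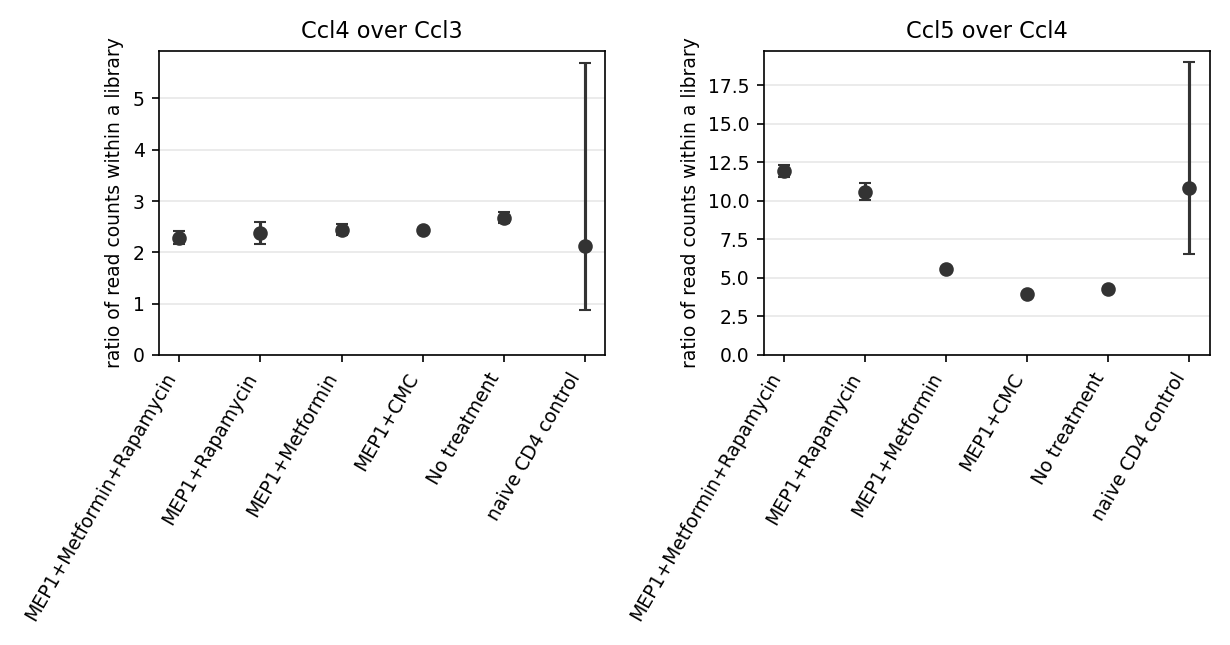
Ccl4 reads per Ccl3 read and Ccl5 reads per Ccl4 read within each library, with 95% counting intervals. The first ratio lies between 2.13 and 2.67 in all 6 libraries, and the second is 10.6 to 11.9 in the libraries with rapamycin against 3.94 to 5.56 in the other transferred libraries.

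Transcripts of the receptors CCR1, CCR3 and XCR1 were low in the sorted cells. Xcr1 had 1.36 to 2.99 TMM CPM in the transferred libraries, and Ccr3 had 6.604 to 19.4. Ccr1 was not kept by the filter, and neither were the atypical receptors Ackr1 and Ackr2, which take up chemokines without signalling.

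A list of 13 cytokine and granule genes was described beside these chemokines, 12 of them kept. In MEP1+CMC against No treatment 7 were higher and 1 was lower, with a median of 1.27, where 7.76% of all kept genes were higher and 3.72% lower. Against MEP1+CMC none were higher and 6 lower in the combination, where 3.01% of all kept genes were higher and 3.68% lower. In MEP1+Rapamycin 1 was higher and 9 lower, where 5.15% were higher and 5.83% lower, and in MEP1+Metformin none were higher and 6 lower (median -0.97), where 2.66% were higher and 2.98% lower. Ifng, the main Th1 cytokine, had 25.4 TMM CPM in the combination, 17.5 in MEP1+Rapamycin, 74.4 in MEP1+Metformin, 199.2 in MEP1+CMC, 63.8 in No treatment and 0.162 in the naive control, so that it too was lower in the combination than in No treatment. Gzmk, a granzyme gene, had 145 in the combination and 39.2 in MEP1+Rapamycin, against 473.9 in MEP1+CMC. Tnf, another cytokine that T cells release on activation, went with the others only in part, at 51.1 TMM CPM in MEP1+CMC against 69.7 in No treatment.

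A list of 21 transcription factor genes known for effector chemokine loci was measured in full. Against MEP1+CMC, 4 were lower and none higher in each of the 3 inhibitor libraries, and they were the same 4 genes, Eomes, Prdm1, Bhlhe40 and Nfil3. The shares of all kept genes that were lower were 3.68% in the combination, 5.83% in MEP1+Rapamycin and 2.98% in MEP1+Metformin. The medians of the list were -0.23 in the combination, -0.46 in MEP1+Rapamycin and -0.10 in MEP1+Metformin, against -0.01, -0.13 and -0.04 over the kept genes. Eomes, a T-box factor, had 48.1 TMM CPM in the combination, 15.4 in MEP1+Rapamycin, 42.1 in MEP1+Metformin, 165 in MEP1+CMC, 37.7 in No treatment and 2.05 in the naive control. Tbx21, the T-box factor of Th1 cells, did not have that pattern, with 18.1 TMM CPM in MEP1+CMC against 23.9 in No treatment. Runx3 lay between 85.4 and 151 TMM CPM in all 6 libraries.

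Of the genes that answer antigen-receptor signals early, 18 were kept. In MEP1+CMC against No treatment 3 were higher and 1 was lower, with a median of -0.01, where 7.76% of all kept genes were higher and 3.72% lower. Against MEP1+CMC, none were higher and 7 lower in the combination (median -0.73), where 3.68% of all kept genes were lower. In MEP1+Rapamycin 1 was higher and 6 lower (median -0.58), where 5.83% were lower, and in MEP1+Metformin none were higher and 2 lower (median -0.14), where 2.98% were lower. Egr1, an immediate early factor, had a log2 ratio of -1.84 in the combination and of -1.95 in MEP1+Rapamycin. None of 8 genes that act on messenger RNA decay through AU-rich elements passed the rule of size in the comparisons with MEP1+CMC. With such small shares of all kept genes past the rule there, a count of 0 in so short a list is not a result about these genes.

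Of 34 other chemokine ligands listed, 10 were kept, and none of them passed as higher in MEP1+CMC against No treatment. In that pair 7 were lower, with a median of -1.28, where 7.76% of all kept genes were higher and 3.72% lower. Among the 7 were Cxcl9, an interferon-induced ligand of CXCR3 (-2.74), and Cxcl16, the ligand of CXCR6 (-1.77). Pf4, a platelet chemokine (-1.22), was another. Ligands left out by the filter went both ways. Cx3cl1 had 1.94 TMM CPM in MEP1+CMC against 0.434 in No treatment, and Ccl12 had 0.273 against 1.86. Macrophage markers were lower in the same pair, at -2.44 for Lyz2, -2.41 for Csf1r and -2.27 for C1qa, as was the red-cell gene Hba-a1 (-2.25), and the part of such cells in the ligand counts was not tested. Close to the CC members on chromosome 11, Ccl9 had at most 0.546 TMM CPM. Wfdc17, 39308 bases from Ccl4, had 12.98 TMM CPM in MEP1+CMC against 33.9 in No treatment, the opposite direction to Ccl4 in that pair. In the inhibitor libraries Wfdc17 was below MEP1+CMC, as Ccl4 was. It had 4.02 in the combination, 2.56 in MEP1+Rapamycin and 3.29 in MEP1+Metformin. Heatr9, 3603 bases from Ccl5, had 3.65 TMM CPM in MEP1+CMC against 1.11 in No treatment.

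Macrophages and NK cells can also make these chemokines, so their markers are given beside the results. The summed level of 11 macrophage and monocyte markers was 373 TMM CPM in the combination, 299.9 in MEP1+Rapamycin, 339.9 in MEP1+Metformin, 553 in MEP1+CMC, 2746 in No treatment and 43.9 in the naive control, where Cd14 was at 0. This sum was lower in MEP1+CMC than in No treatment, and Lyz2 alone had 325 TMM CPM in MEP1+CMC against 1759 in No treatment. The part of macrophages in the chemokine results was not tested. Against MEP1+CMC, 1 of the 10 kept macrophage markers was lower in each inhibitor library, Lyz2, and 1 was higher. Of all kept genes, 3.68% were lower and 3.01% higher in the combination. The shares were 5.83% and 5.15% in MEP1+Rapamycin, and 2.98% and 2.66% in MEP1+Metformin. A count of 1 in so short a list is not a result about these genes. Erythroid and platelet markers, 6 genes, summed to 41.8 TMM CPM in the combination, 72.7 in MEP1+Rapamycin, 44.5 in MEP1+Metformin, 278.9 in MEP1+CMC, 1280 in No treatment and 281 in the naive control, and their part in the results was not tested. The 7 NK-cell markers summed to 52.6 TMM CPM in the combination, 19.0 in MEP1+Rapamycin, 55.1 in MEP1+Metformin, 178 in MEP1+CMC, 45.5 in No treatment and 2.42 in the naive control. Most of that sum was Eomes, which T cells also express. Ncr1, an NK receptor gene, had 0.341 TMM CPM in the combination, 1.48 in MEP1+Rapamycin and 1.45 in MEP1+Metformin. It had 0.938 in MEP1+CMC and 0.400 in No treatment, and was at 0 in the naive control. Ncr1 was not kept by the filter, and its values rest on 19 to 73 reads in the transferred libraries. Klra4 was at 0 in No treatment and Klra8 in MEP1+Metformin. Of the 4 kept NK markers, Eomes and Klre1 were higher in MEP1+CMC against No treatment, where 7.76% of all kept genes were higher. Against MEP1+CMC, 3 were lower in the combination (3.68% of all kept genes), 4 in MEP1+Rapamycin (5.83%) and 2 in MEP1+Metformin (2.98%). Klre1 was highest in MEP1+CMC, at 3.07 TMM CPM from 180 reads. It had 0.592 in the combination, 0.324 in MEP1+Rapamycin (12 reads), 1.15 in MEP1+Metformin and 0.695 in No treatment. In the naive control Klre1 was at 0. Klrb1c had 0.699 TMM CPM in the combination, 0.486 in MEP1+Rapamycin, 7.66 in MEP1+Metformin, 4.83 in MEP1+CMC and 3.28 in No treatment. Klrk1 passed as lower in MEP1+Rapamycin, at 0.809 TMM CPM against 3.16 in MEP1+CMC. The part of the NK markers in the results was not tested. CD8 markers summed to 3.23 to 6.61 TMM CPM in the transferred libraries and to 30.3 in the naive control. Dendritic-cell markers summed to 98.1 to 117 TMM CPM in the 4 peptide libraries and 306 in No treatment. Most of each of these sums was H2-Ab1, at 103.9 in MEP1+CMC and 291.4 in No treatment. Siglech had 1.865 TMM CPM in the combination, 10.9 in MEP1+Rapamycin, 6.544 in MEP1+Metformin and 2.422 in MEP1+CMC. Zbtb46 was higher in MEP1+CMC (5.595) than in No treatment (2.572), while Itgax was lower (1.672 against 5.491). The part of dendritic cells in the results was not tested. Neutrophil markers summed to at most 8.09 in any library.

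Likeness of pattern was measured as the root mean square difference of centred log2(TMM CPM + 1) over the 6 libraries, where 0 is the same pattern. Ccl3 and Ccl4 were 0.323 apart, Ccl4 and Ccl5 0.601, and Xcl1 was 1.09 to 1.35 from the others. Ccl3 was the nearest of all kept genes to Ccl4. The 4 chemokines were then left out, so that the genes named next are the nearest among the other kept genes. The gene nearest to Ccl3 was Ifng (0.274), and Tigit, an inhibitory receptor gene (0.467), Gzmk (0.484) and the chemokine receptor gene Ccr2 (0.569) were among the 5 nearest. Among these genes Ifng was also nearest to Ccl4 (0.357), with Gzmk (0.463), Tigit (0.655) and Angptl2 (0.761) among its 5 nearest. Nearest to Ccl5, the other chemokines aside, were Gzmk (0.393), Ccr2 (0.563), the factor gene Maf (0.583), Angptl2 (0.612) and Tigit (0.672). Xcl1 had other neighbours, 1700019D03Rik (0.172), Gm11454 (0.252), the ectoenzyme gene Cd38 (0.323), Prr5l (0.349) and Metrnl (0.350). The naive library weighs heavily in this measure. Over the 5 transferred libraries alone, Ifng stayed among the 5 nearest to Ccl3 (0.293) and to Ccl4 (0.275), but no other gene listed for Ccl3 or Ccl4 did. None of the 5 listed for Ccl5 stayed, and for Xcl1 1700019D03Rik alone did (0.113).

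**Figure D5:**
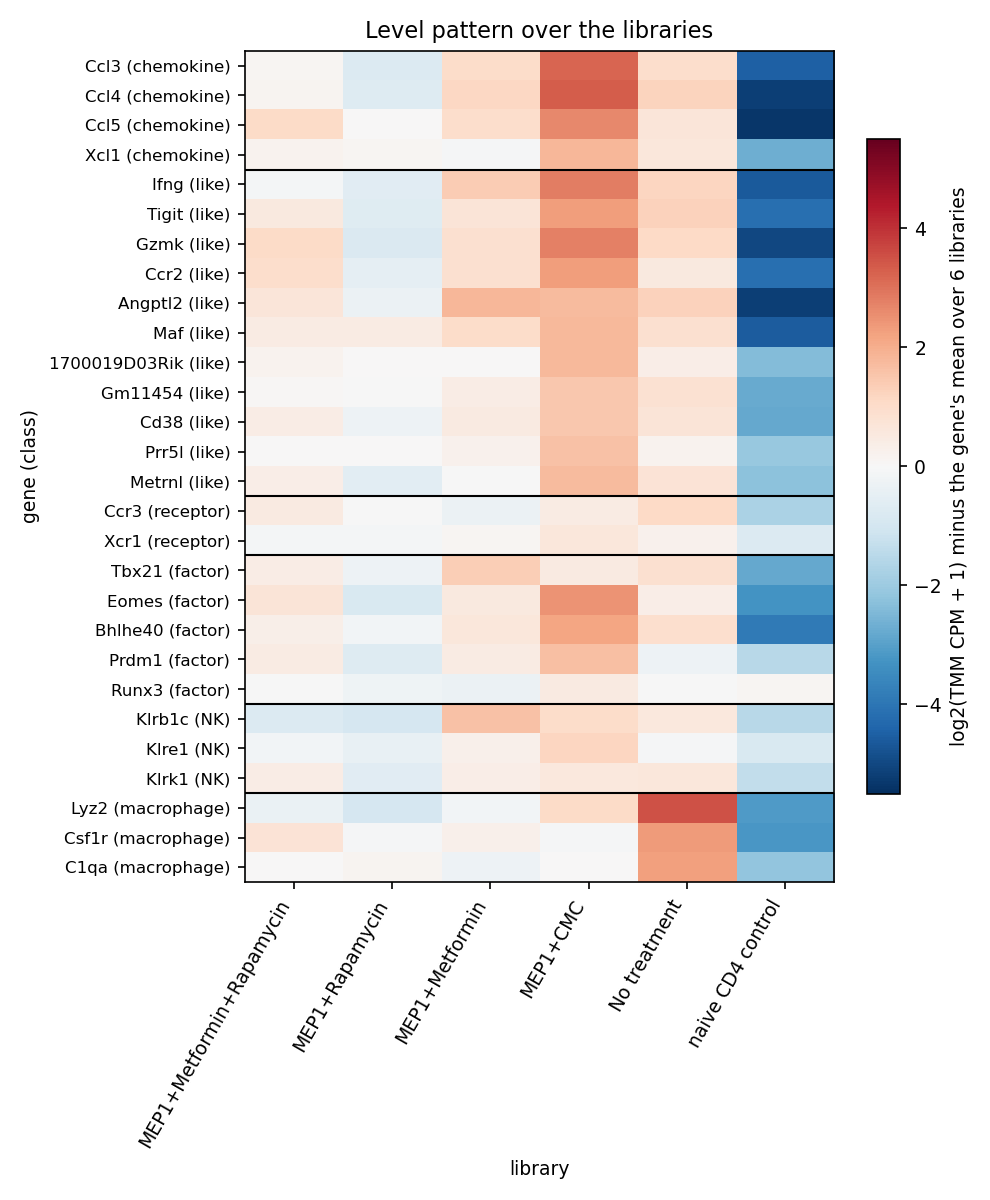
Heat map of log2(TMM CPM + 1), centred on each gene's mean over the 6 libraries, for Ccl3, Ccl4, Ccl5, Xcl1, genes of near pattern (marked like), and receptor, transcription factor, NK and macrophage genes. Columns are the libraries and colour is the difference from the gene's mean. In the rows of the chemokines and the genes like them MEP1+CMC is above the mean and the naive control is the lowest library, and in those of the macrophage genes No treatment is the highest.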

How the data were processed

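Sequencing libraries of RNA, 1 per condition, were prepared from very small inputs, per the labels' protocols. Whole-number counts of reads in the exons of each gene were deposited by the authors, without normalization, and were made with Trimmomatic 0.36, STAR 2.5.2b, featureCounts (Subread 1.5.2) and GRCm38, per the submitters' processing notes. The strand setting and annotation release are not given in the sources used here. Symbols came from GENCODE M21 and matched 48970 of 49315 identifiers.

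TMM factors (edgeR 4.0.16) over all genes ran from 0.711 (naive) to 1.15 (MEP1+Rapamycin). Genes were kept at 2 TMM CPM and 10 counts in at least 1 library. Log2 ratios of TMM CPM carry exact 95% Clopper-Pearson intervals of both counts, computed with scipy 1.17.1. A gene passed the rule of size at 2-fold with an interval that excluded no change. The rule was tried on simulated counts with counting error only, in which some genes were changed by more than its limit. These simulated counts held no variation between mice or libraries, so they cannot check the rule against it. No test was run, since no condition has a replicate. Since reads carry no molecular identifiers, they do not count independent molecules. The genes named were the 4 members, the listed genes, annotated genes within 50 kb of a member, and the 5 genes, members left out, of nearest pattern to each member, of which 1 gene is not reported here. The members and lists were chosen with earlier results of these data known. Alternatives tried were other scalings, filters, fold limits and removal of a trend on gene length.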

Additional observations from a re-analysis of the deposited data

Results flagged for a closer look

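The log2 difference for 1 inhibitor had opposite directions with and without the other in 5 cases. Each rests on 1 library per condition and on the MEP1+CMC library, and the difference was not tested. MEP1+CMC also differed from the inhibitor libraries in Xist and Ddx3y. Inhibitor and sex therefore cannot be told apart in the differences without the other inhibitor. The metformin difference of Ccl3 was 0.93 on the log2 scale with rapamycin and -2.21 without it. For Ccl4 the metformin difference was 0.88 with rapamycin and -2.21 without it, and for Ccl5 it was 1.06 with rapamycin and -1.71 without it. The rapamycin difference of Ccl5 was 0.11 with metformin, where another scaling gave -0.02, and -2.65 without metformin. The rapamycin difference of Xcl1 was 0.27 with metformin and -1.82 without it.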

How the results depend on the processing

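No ratio of Ccl3, Ccl4, Ccl5 or Xcl1 that passed the rule of size changed direction under any alternative. Requiring 2 CPM in every library kept only Ccl5, so the count passing was 1 in MEP1+CMC against No treatment, in No treatment against naive and in each inhibitor library against MEP1+CMC, and 0 in MEP1+Rapamycin against MEP1+Metformin or No treatment and in the combination against No treatment. In that last comparison the count lower was 0 with library totals, scaling to CD4 identity markers, the length trend removed or a 3-fold rule, and 2 with a 1.5-fold rule, which gave 1 in MEP1+Metformin against No treatment. In the combination against MEP1+Metformin it was 1 with DESeq2 size factors, library totals, upper quartile, CD4 identity markers or TMM over the kept genes (added after seeing the data), and 2 with the length trend removed or the 1.5-fold rule. In the combination against MEP1+Rapamycin the count higher was 0 with DESeq2, upper quartile, CD4 identity markers, TMM over the kept genes or the 3-fold rule, and 3 with the length trend removed or the 1.5-fold rule. The departure from additivity was 2.99 for Ccl3, 2.94 for Ccl4 and 2.62 for Ccl5 with DESeq2 size factors, and 2.95, 2.89 and 2.57 with library totals. Except for the counts that fall to the filter and the fold limits by construction, the cause was not tested. Over all kept genes, CD4 identity scaling moved the median by 0.46 in MEP1+Rapamycin against MEP1+CMC, and gave 1599 higher and 380 lower genes there against 661 and 749 with TMM. Library totals gave 3231 higher and 457 lower in No treatment against naive, against 2110 and 968. The log2 ratio of Ccl4 in MEP1+Rapamycin against MEP1+CMC ran from -4.32 to -3.61 over 7 alternatives of scaling or length correction. Of 198 counts over all genes, 63 moved by more than 1.5 times. The naive values of Ccl3, Ccl4 and Xcl1 rest on 5 to 17 reads. No paired analysis was possible because each condition has 1 library.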
